A study of Homo sapiens with 4 samples.

Results

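The 10 genes described here include NFKB1, NFKB2, REL, RELA and RELB, which encode the NF-kB subunits. Of the others, NFKBIA, NFKBIE and NFKBIZ encode IkB proteins, TNFAIP3 encodes the feedback enzyme A20, and IKBKE encodes an IKK-related kinase. The 10 genes were taken by name from a table of 43622 genes. All 10 passed into the set of 19932 tested genes, those averaging at least 0.1 TPM. TPM is transcript abundance scaled to gene length and to the same total in every library. In MLN4924-treated PC3 cells, transcripts of RELA, RELB, REL, NFKB2 and TNFAIP3 rose, while those of NFKB1, NFKBIA, NFKBIZ and IKBKE fell. In PC3-shp14ARF cells given only DMSO, 8 of the 10 genes were lower than in PC3 cells at an adjusted p below 0.05, as were 20.4% of all genes tested. The largest of these 8 differences was 16.2-fold, for NFKBIZ. NFKBIZ fell with MLN4924 in PC3 cells and rose with it in PC3-shp14ARF cells.

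NF-kB is a family of dimeric transcription factors. RELA, RELB and REL carry transactivation domains, whereas NFKB1 and NFKB2 encode the precursors p105 and p100, which are processed to the DNA-binding subunits p50 and p52. Cytoplasmic IkB proteins hold the dimers outside the nucleus until IKK phosphorylates these IkB proteins. The ligase SCF beta-TrCP, a cullin-RING ligase that needs its cullin to be modified with NEDD8, then marks them for the proteasome. Several genes of the system, among them NFKBIA and TNFAIP3, are themselves known targets of NF-kB and close feedback loops.

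RNA sequencing was done on PC3, an established human prostate cancer cell line, and on PC3-shp14ARF, the same line stably transduced with a retrovirus that carries a short hairpin RNA (shRNA) against the tumor suppressor p14ARF and selected with hygromycin. MLN4924 inhibits the activation of NEDD8 and so blocks NEDDylation. Each line received either the solvent DMSO or MLN4924 at 1 µM for 3 days, and each of the 4 resulting conditions was covered by 3 libraries. For PC3 they are called Ctrl (DMSO) and MLN (MLN4924), and for PC3-shp14ARF shARF (DMSO) and Both (MLN4924). The labels do not mention a control hairpin in PC3 cells, and 1 shRNA line stands for p14ARF depletion, so the depletion, the hairpin and the transduced line cannot be told apart.

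CDKN2A, the gene of p14ARF and also of p16INK4a, measured 190.1, 183 and 177 TPM in Ctrl, 100.4, 133 and 119 TPM in MLN, 58.2, 58.7 and 60.9 TPM in shARF, and 47.2, 41.2 and 54.0 TPM in Both. Every PC3-shp14ARF library was below every PC3 library, and shARF was lower than Ctrl by 1.63 on the log2 scale (log2 difference −1.63, SE 0.035, limma adjusted p = 2.24e-05). MLN4924 also went with a lower CDKN2A level in PC3 cells (log2 difference −0.65, adjusted p = 0.00235). This value is RNA of the whole gene, p16INK4a included. For the protein, the paper reports that p14ARF rose with MLN4924 in PC3 cells. Read depth cannot be recovered from TPM and is unknown. The Pearson correlation of log2 values over the 19932 genes was 0.975 to 0.980 for the 12 pairs of libraries within a condition and 0.889 to 0.959 for the 54 pairs between conditions. The labels do not say that the libraries came from separate cultures, so p-values measure only the spread between these libraries, which may be technical. The epithelial markers EPCAM, KRT8, KRT18 and KRT19 were above 1 TPM in all libraries, with a summed level of 892 to 985 TPM in Ctrl and 428 to 490 in MLN, and 1118 to 1259 in shARF and 426 to 442 in Both. None of the 4 prostate luminal markers was above 1 TPM in every library and KLK3 was listed at 0 in all 12, so none of these markers stood behind the prostatic origin given in the labels. Of 5 leukocyte markers LYZ alone was above 1 TPM in every library (sum of the 5, 36.1 to 50.9 TPM in Ctrl and 8.02 to 10.3 in MLN, and 41.6 to 50.0 in shARF and 7.42 to 9.81 in Both), and the stromal and endothelial sum was 21.0 to 24.3 TPM in Ctrl and 19.7 to 22.3 in MLN, and 6.59 to 7.92 in shARF and 6.57 to 7.63 in Both. These sums hide opposite moves: with MLN4924 in PC3 cells LYZ fell from 43.6 to 5.99 TPM while CD79A rose from 0.335 to 2.06 and PTPRC from 0.0242 to 0.268, and PECAM1 fell from 11.7 to 0.579 and ACTA2 from 3.09 to 1.17 while COL1A1 rose from 7.27 to 18.2 TPM (limma adjusted p at most 0.00449). The part of these shifts in the results below was not tested, and in bulk RNA fewer cells of a type and less RNA per cell cannot be told apart.

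The kappa-B motif is the DNA sequence bound by NF-kB dimers, and its 10-letter consensus was searched on both strands in the 250 bases before each RefSeq start site (GRCh38.p14). It was found for REL, NFKB1, NFKB2, NFKBIA, NFKBIZ and TNFAIP3, which are 6 of the 8 members with a promoter entry (75%), and in 1828 of 35116 promoter windows of all genes (5.21%), or 1715 of 27305 genes (6.28%). RELA and IKBKE had no match to these letters. RELB and NFKBIE had no entry. A match is a description of the sequence and was not tested as a binding site. The windows below show 1 match for each of these genes, and a second for TNFAIP3, because NFKBIZ, TNFAIP3 and NFKBIA are among the 4 members with the widest range between conditions and the others allow their motifs to be compared. Each is written 5′ to 3′ on the gene's strand, with the match in capitals.
NFKBIA, chr14:35404811-35404840, minus strand: tgactggcttGGAAATTCCCcgagcctgac
NFKBIZ, chr3:101827757-101827786, plus strand: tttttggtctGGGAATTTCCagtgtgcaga
TNFAIP3, chr6:137867182-137867211, plus strand: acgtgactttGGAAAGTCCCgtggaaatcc
TNFAIP3, chr6:137867194-137867223, plus strand: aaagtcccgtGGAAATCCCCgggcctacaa
NFKB1, chr4:102501300-102501329, plus strand: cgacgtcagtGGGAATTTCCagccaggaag
NFKB2, chr10:102394461-102394490, plus strand: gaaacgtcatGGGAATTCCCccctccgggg
REL, chr2:60881517-60881546, plus strand: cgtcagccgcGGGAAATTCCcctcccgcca
The NFKBIZ and NFKB1 windows hold the same 10 letters. The matches lie 81 to 72 bases before the start for NFKBIA, 223 to 214 for NFKBIZ, 49 to 40 for NFKB1, and 67 to 58 and 55 to 46 for TNFAIP3, where the windows overlap. In REL and NFKB2 the match shown overlaps a second match shifted by 1 base, which is not shown. The match of NFKB2 lies 107 to 98 bases before the second of its start sites, and that of REL 47 to 38 before its start. NFKBIZ had a further match before another start site and NFKB2 had further matches before its second and another start site.

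The members differed widely in level, which TPM allows to be compared since it is scaled per transcript length. In Ctrl, NFKBIA, the gene of the main cytoplasmic inhibitor IkBα, had a mean of 375 ± 18.8 TPM (SD, n = 3 here and for the values below) and stood at percentile 97.5 of the 14663 genes that averaged 1 TPM or more. NFKBIZ, which encodes the nuclear co-regulator IkBζ, had 170 ± 18.0 TPM (percentile 93.6). Of the subunits RELA was the most abundant, with 62.1 ± 5.94 TPM (percentile 80.7), followed by NFKB2 with 42.5 ± 4.44, NFKB1 with 30.3 ± 1.59, RELB with 8.12 ± 0.530 and REL with 2.15 ± 0.0663 TPM. IKBKE was at 31.4 ± 2.80, TNFAIP3 at 12.4 ± 1.28 and NFKBIE, the gene of IkBε, at 9.60 ± 0.630 TPM. The ratio of the highest to the lowest condition mean was 21.1 for IKBKE, 16.2 for NFKBIZ, 15.1 for TNFAIP3 and 8.75 for NFKBIA, and between 1.55 (RELA) and 3.46 (REL) for the other members.

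The values of single libraries are given below in the order of the column numbers, which are 1, 2 and 3 for Ctrl, 1, 2 and 5 for MLN, 1, 3 and 5 for shARF, and 2, 3 and 4 for Both. RELA, the transactivating subunit of the canonical dimer (chromosome 11, 65653599 to 65663090, minus strand), had 68.6, 56.9 and 60.9 TPM in Ctrl, 80.9, 92.9 and 105 in MLN, 59.1, 58.2 and 62.8 in shARF, and 76.7, 73.3 and 74.3 in Both. Its order was MLN, Both, Ctrl and shARF, and the Ctrl and shARF libraries overlapped. RELB, the partner of p52 in the non-canonical pathway (chromosome 19, 45001461 to 45038192, plus strand), had 8.65, 7.59 and 8.11 TPM in Ctrl, 11.96, 14.4 and 12.3 in MLN, 4.15, 4.30 and 4.24 in shARF, and 12.8, 11.4 and 11.3 in Both. REL, which encodes c-Rel (chromosome 2, 60881491 to 60931612, plus strand), had 2.12, 2.22 and 2.09 TPM in Ctrl, 3.28, 3.25 and 3.18 in MLN, 0.699, 1.15 and 0.959 in shARF, and 3.38, 3.17 and 3.06 in Both. RELB and REL shared the order of RELA. For both genes the MLN and Both libraries overlapped and every shARF library lay below every other library. NFKB2 (chromosome 10, 102394110 to 102402524, plus strand) had 47.5, 38.9 and 41.0 TPM in Ctrl, 67.4, 81.6 and 78.4 in MLN, 25.0, 24.5 and 28.2 in shARF, and 53.0, 52.4 and 57.8 in Both, also in the order MLN, Both, Ctrl and shARF but with no overlap. NFKB1 (chromosome 4, 102501330 to 102617302, plus strand) had 32.1, 29.9 and 29.0 TPM in Ctrl and 10.8, 11.2 and 12.9 in MLN. It had 19.5, 19.1 and 21.6 TPM in shARF, and 15.5, 16.0 and 14.2 in Both. Its order was Ctrl, shARF, Both and MLN, with no overlap. The gene of p50 was thus lowest where the gene of p52 was highest, but both genes were lower in shARF than in Ctrl.

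NFKBIA (chromosome 14, 35401079 to 35404749, minus strand) had 395, 374 and 357 TPM in Ctrl, 50.7, 60.9 and 60.1 in MLN, 67.3, 71.1 and 80.5 in shARF, and 42.7, 42.2 and 43.8 in Both. The Ctrl libraries stood far above all others, and the remaining conditions followed in the order shARF, MLN and Both without overlap. NFKBIZ (chromosome 3, 101827991 to 101861022, plus strand) had 187, 173 and 151 TPM in Ctrl, 28.2, 30.5 and 32.8 in MLN, 11.2, 9.43 and 10.9 in shARF, and 39.2, 42.9 and 37.8 in Both, so that Both lay above MLN and shARF without overlap. NFKBIE (chromosome 6, 44258166 to 44265788, minus strand) moved least among these IkB genes. It had 10.2, 8.93 and 9.71 TPM in Ctrl and 11.4, 9.90 and 10.3 in MLN. In shARF it had 11.6, 11.4 and 12.1 TPM, and in Both 6.61, 5.77 and 7.75. Its Ctrl and MLN libraries overlapped and its Both libraries were the lowest.

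TNFAIP3 (chromosome 6, 137867214 to 137883314, plus strand), whose product A20 edits ubiquitin chains on upstream signaling proteins, had 13.9, 11.8 and 11.5 TPM in Ctrl, 15.7, 16.6 and 16.6 in MLN, 1.22, 1.08 and 0.943 in shARF, and 2.79, 2.71 and 2.72 in Both. The split was by cell line: every PC3 library was above every PC3-shp14ARF library. IKBKE (chromosome 1, 206470476 to 206496889, plus strand), the gene of IKKε, a relative of TBK1, had 34.3, 31.0 and 28.8 TPM in Ctrl, 6.81, 7.77 and 8.27 in MLN, 4.19, 5.12 and 4.40 in shARF, and 1.50, 1.64 and 1.31 in Both. Its levels stepped down from Ctrl through MLN and shARF to Both without overlap.

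The comparison of MLN with Ctrl asked how blocking NEDDylation changed these transcripts in cells with p14ARF. Of the 10 members 5 were higher and 4 lower at a limma adjusted p below 0.05, where 32.2% of all genes tested were called higher and 29.4% lower, so a call alone did not set the members apart. All 4 that were lower were beyond 1 on the log2 scale, as were 28.0% of all genes in either direction. The largest difference was that of NFKBIA, with a log2 difference of −2.71 (SE 0.085, adjusted p = 5.92e-06), a level 15.3% of that in Ctrl. NFKBIZ differed by −2.48 (SE 0.096, adjusted p = 1.06e-05), IKBKE by −2.03 (SE 0.10, adjusted p = 2.19e-05) and NFKB1 by −1.37 (SE 0.082, adjusted p = 4.18e-05). The rises were smaller. NFKB2 differed by 0.83 (SE 0.10), RELB by 0.66 (SE 0.096), RELA by 0.58 (SE 0.11), REL by 0.57 (SE 0.10) and TNFAIP3 by 0.39 (SE 0.086) on the log2 scale, with adjusted p from 0.000755 (NFKB2) to 0.00816 (TNFAIP3). NFKBIE was not called (log2 difference 0.13, 95% interval −0.075 to 0.34, adjusted p = 0.22). The median over the members was 0.26 and over all genes tested 0.052. Thus 4 of the 5 subunit genes rose, NFKB1 being the exception. Of the 3 IkB genes NFKBIA and NFKBIZ fell, and NFKBIZ encodes a nuclear co-regulator rather than a cytoplasmic inhibitor.

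The comparison of shARF with Ctrl asked what differed between the lines without the drug. Here 8 members were lower and 1 higher, against 20.4% and 21.0% of all genes, and 5 were beyond 1 on the log2 scale, against 10.5% of all genes in either direction. The median log2 difference of the members was −1.03 and that of all genes 0. The 4 largest differences were those of NFKBIZ, TNFAIP3, IKBKE and NFKBIA. NFKBIZ differed by −4.00 on the log2 scale (SE 0.11, adjusted p = 4.08e-05), TNFAIP3 by −3.41 (SE 0.13, adjusted p = 8.72e-05), IKBKE by −2.75 (SE 0.10, adjusted p = 8.63e-05) and NFKBIA by −2.37 (SE 0.078, adjusted p = 6.46e-05). In mean TPM, TNFAIP3 was 11.5-fold, IKBKE 6.86-fold and NFKBIA 5.15-fold lower. Among the subunits REL differed by −1.14 (SE 0.19, adjusted p = 0.00749), RELB by −0.92 (SE 0.069), NFKB2 by −0.71 (SE 0.095) and NFKB1 by −0.59 (SE 0.064), each with an adjusted p of at most 0.00749. With a pseudocount of 1 the difference of REL was −0.71. RELA had a log2 difference of −0.046 and was not called (95% interval −0.24 to 0.15, adjusted p = 0.677). NFKBIE was higher by 0.28 (SE 0.063, adjusted p = 0.0185), but this call was lost without Ctrl replicate 3 (adjusted p = 0.0541), shARF replicate 1 (adjusted p = 0.0589) or shARF replicate 5 (adjusted p = 0.0622), and its adjusted p ranged from 0.00468 to 0.139 over the alternatives.

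**Figure D1:**
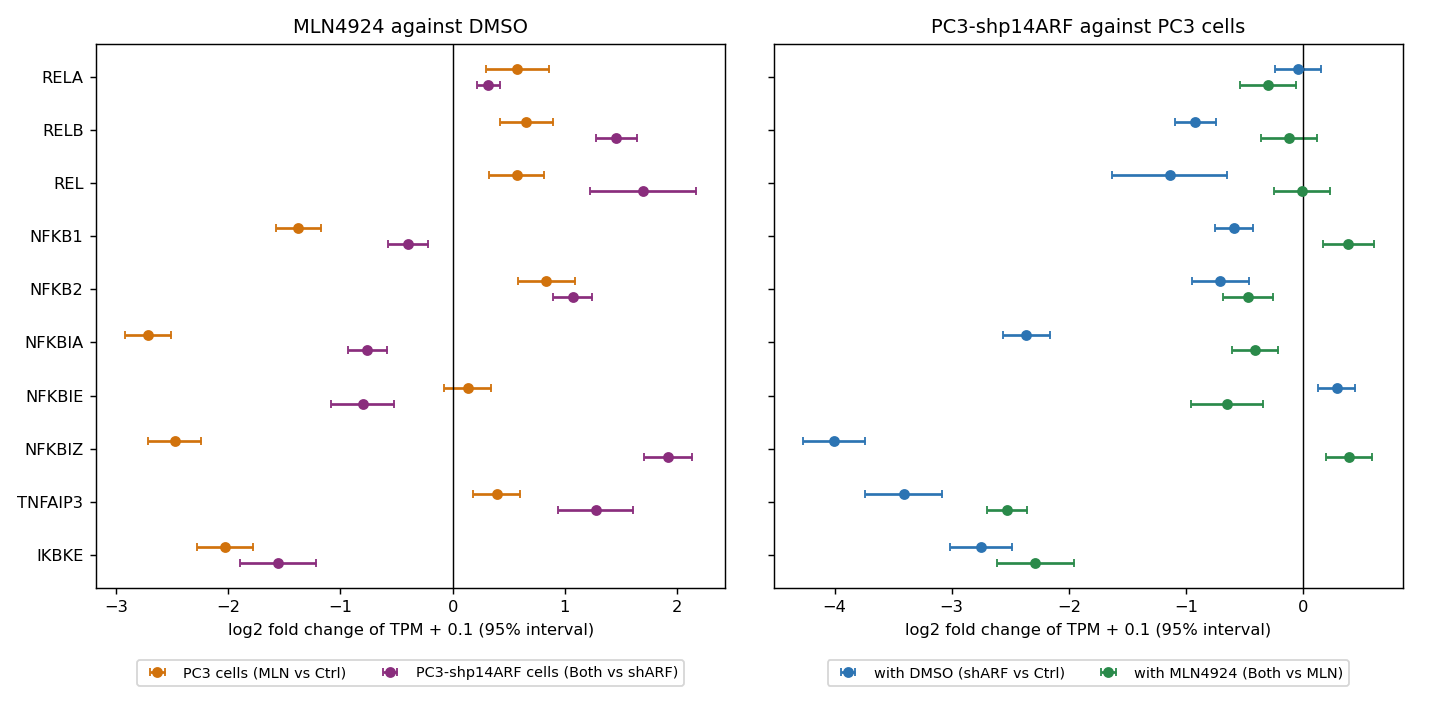
Log2 fold change of TPM + 0.1 of each member with its 95% interval from limma, for MLN4924 against DMSO in each line (left) and for PC3-shp14ARF against PC3 cells under each treatment (right). On the left NFKBIZ lies at −2.48 in PC3 and 1.92 in PC3-shp14ARF cells; on the right TNFAIP3 and IKBKE lie below −2 under both treatments.

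In the PC3-shp14ARF line, the comparison of Both with shARF gave the response to MLN4924 in cells depleted of p14ARF. All 10 members were called, 6 higher and 4 lower, where 28.3% of all genes were called higher and 32.8% lower. Of these, 5 of the higher and 1 of the lower were beyond 1 on the log2 scale (26.4% of all genes, either direction). NFKBIZ rose by 1.92 on the log2 scale (SE 0.086, adjusted p = 1.45e-05), from a mean of 10.5 ± 0.954 to 40.0 ± 2.66 TPM. REL rose by 1.70 (SE 0.19), RELB by 1.46 (SE 0.074), TNFAIP3 by 1.27 (SE 0.14) and NFKB2 by 1.07 (SE 0.070), with adjusted p from 2.29e-05 (RELB) to 0.000535 (REL), and RELA by 0.32 (SE 0.042, adjusted p = 0.00104). REL and TNFAIP3 are low in shARF, and with a pseudocount of 1 they rose by 1.13 and 0.85. In the other direction IKBKE differed by −1.56 (SE 0.14, adjusted p = 0.000183), NFKBIE by −0.80 (SE 0.11, adjusted p = 0.00142), NFKBIA by −0.76 (SE 0.071, adjusted p = 0.000227) and NFKB1 by −0.40 (SE 0.072, adjusted p = 0.00403). The median log2 difference of the members was 0.69, and that of all genes −0.038. This comparison shares no library with MLN vs Ctrl. In both comparisons 8 of the 10 members were called in the same direction, as were 44.7% of all genes tested, namely RELA, RELB, REL, NFKB2 and TNFAIP3 higher and NFKB1, NFKBIA and IKBKE lower. NFKBIZ was called in opposite directions, as were 2.28% of all genes, and NFKBIE was called in PC3-shp14ARF cells alone.

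The comparison of Both with MLN set the lines side by side under the drug. In this comparison 2 members were higher (11.8% of all genes) and 5 lower (20.6% of all genes), with 2 beyond 1 on the log2 scale (9.02% of all genes, either direction). The direction of calls over all genes depended on the scaling: 36.4% of called genes were higher in the deposited TPM and 51.4% after median-of-ratios scaling. The 2 large differences were in TNFAIP3 (log2 difference −2.53, SE 0.070, adjusted p = 0.000165) and IKBKE (log2 difference −2.29, SE 0.13, adjusted p = 0.000431), whose mean TPM in Both was 16.8% and 19.5% of that in MLN. NFKBIE differed by −0.65 (SE 0.13, adjusted p = 0.0123) and NFKB2 by −0.47 (SE 0.086, adjusted p = 0.0101). NFKBIA differed by −0.41 (SE 0.080, adjusted p = 0.0127), and NFKBIZ and NFKB1 were each higher by 0.39 (adjusted p = 0.0145 and 0.0226). The last 3 calls were close to the threshold and were lost when certain single libraries were left out, with the direction unchanged. NFKBIA was not called without Both replicate 2 (adjusted p = 0.051), NFKBIZ not without MLN replicate 2 (adjusted p = 0.0552), and NFKB1 not without MLN replicate 1, MLN replicate 2, Both replicate 2 or Both replicate 3 (adjusted p = 0.0591, 0.0813, 0.0796 and 0.0707). The range of the NFKB1 adjusted p over all alternatives was 0.00278 to 0.0813. RELA just missed the threshold (log2 difference −0.31, 95% interval −0.54 to −0.066, adjusted p = 0.0594) although its MLN and Both libraries did not overlap, and it was called without MLN replicate 1 (adjusted p = 0.0161), with a filter at 1 TPM (0.0295) and in a joint fit of the 12 libraries (0.0176), over a range of 0.0161 to 0.153. RELB and REL were not called, with 95% intervals of −0.36 to 0.11 and −0.25 to 0.22 on the log2 scale. The direction for REL (−0.014) turned under median-of-ratios scaling (0.076). The median was −0.36 over the members and −0.080 over all genes.

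The interaction, the log2 response to MLN4924 in PC3-shp14ARF cells minus that in PC3 cells, was fitted to the 12 libraries and tests whether the responses differed. It was called for 7 members, 6 positive (11.2% of all genes) and 1 negative (17.1%), with 3 beyond 1 on the log2 scale (8.47%, either direction). Over all genes 39.5% of the called interactions were positive in the deposited TPM and 53.5% after median-of-ratios scaling. The largest was that of NFKBIZ, at 4.39 (SE 0.13, adjusted p = 1.16e-09), with opposite responses in the lines. NFKBIA followed at 1.95 (SE 0.11, adjusted p = 3.97e-07) and REL at 1.13 (SE 0.22, adjusted p = 0.00282). NFKB1 had 0.98 (SE 0.12), TNFAIP3 0.88 (SE 0.15) and RELB 0.80 (SE 0.13), with adjusted p of 8.62e-05, 0.00121 and 0.000704. With a pseudocount of 1 the interaction was 0.697 for REL and 0.48 for TNFAIP3, both still called. For NFKBIA and NFKB1 the fall was smaller in PC3-shp14ARF cells, and for REL, RELB and TNFAIP3 the rise was larger. NFKBIE had −0.93 (SE 0.15, adjusted p = 0.000656), having fallen in PC3-shp14ARF cells alone. The interaction is also Both vs MLN minus shARF vs Ctrl, so it is not independent of those comparisons. For the 6 positive members the lines differed less with MLN4924 than with DMSO. REL and RELB had 3.23 and 12.9 TPM in MLN and 3.20 and 11.8 in Both. TNFAIP3 stayed apart (−2.53 in Both vs MLN), and NFKBIE differed more with MLN4924 (−0.65 against 0.28). The interactions of RELA (−0.26, adjusted p = 0.153), NFKB2 (0.24, adjusted p = 0.205) and IKBKE (0.47, adjusted p = 0.0555) were not called. That of IKBKE was called without shARF replicate 3 (adjusted p = 0.0345) or Both replicate 4 (adjusted p = 0.0294), with a pseudocount of 1 (0.00174), a filter at 1 TPM (0.0381) or median-of-ratios scaling (0.0168), and ranged from 0.00174 to 0.15 in adjusted p, that of RELA was called without MLN replicate 1 (adjusted p = 0.0302), and that of NFKB2 after median-of-ratios scaling (adjusted p = 0.0451). The median interaction was 0.84 over the members and −0.085 over all genes.

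The 6 members with a kappa-B match, listed above with their windows, did not share one direction. With MLN4924 in PC3 cells 3 rose and 3 fell, where 32.2% and 29.4% of all genes were called. In PC3-shp14ARF cells 4 rose and 2 fell, where 28.3% and 32.8% of all genes were called. In shARF against Ctrl all 6 fell, as did 20.4% of all genes. So did RELB, which had no entry, and IKBKE, which had no match. The interaction was called and positive for 5 of the 6 (11.2% of all genes), with NFKB2 not called.

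Because TPM is scaled per length, the members can also be set against each other within a library. The TPM of the 5 subunits summed to 145 ± 12.2 in Ctrl and 196 ± 19.6 in MLN, and 111 ± 5.72 in shARF and 159 ± 2.71 in Both. NFKB1 made up 20.9 ± 1.01% of this sum in Ctrl and 5.94 ± 0.366% in MLN, and 18.1 ± 0.259% in shARF and 9.56 ± 0.715% in Both. NFKB2 made up 29.2 ± 0.591%, 38.6 ± 1.56%, 23.3 ± 0.581% and 34.1 ± 1.65% in the same order. In consequence NFKB2 exceeded NFKB1 by a factor of 1.40 ± 0.0910 in Ctrl and 1.29 ± 0.0142 in shARF, and by 6.52 ± 0.643 in MLN and 3.59 ± 0.431 in Both. These shares and ratios, and those below, are descriptions and were not tested.

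Relative to RELA, the subunit that IkBα retains, NFKBIA was lower in every other condition than in Ctrl. The ratio of NFKBIA to RELA was 6.07 ± 0.446 in Ctrl (5.76 to 6.58), 0.619 ± 0.0426 in MLN (0.572 to 0.656), 1.21 ± 0.0720 in shARF (1.14 to 1.28) and 0.574 ± 0.0161 in Both (0.557 to 0.590). The MLN and Both libraries overlapped in this ratio. NFKBIB, the gene of the third cytoplasmic inhibitor IkBβ, is not a member and was included after its values were seen. It had 28.4 ± 1.27 TPM in Ctrl and 72.8 ± 9.33 in MLN, and 33.0 ± 2.45 in shARF and 66.1 ± 4.60 in Both, and rose with MLN4924 in both lines (log2 difference 1.35 and 1.00, adjusted p = 7.86e-05 and 9.83e-05). Of the summed TPM of NFKBIA, NFKBIB and NFKBIE, NFKBIA made up 90.8 ± 0.106% in Ctrl and 62.0 ± 0.798% in shARF, and NFKBIB the larger part in MLN (51.7 ± 2.77%) and Both (57.1 ± 1.29%). The sum itself was 413 ± 20.3 TPM in Ctrl and 141 ± 12.4 in MLN, and 118 ± 9.56 in shARF and 116 ± 5.99 in Both. IKBKE was about level with its relative TBK1 in Ctrl (ratio 1.13 ± 0.208) and stood at 0.199 ± 0.0320 in MLN, 0.170 ± 0.0219 in shARF and 0.0424 ± 0.00144 in Both.

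A list of 54 other genes of the pathway, from receptors' adaptors to deubiquitinases, showed where the members stand. With MLN4924 in PC3 cells 25 were higher and 17 lower (32.2% and 29.4% of all genes tested), and in PC3-shp14ARF cells 22 higher and 15 lower (28.3% and 32.8% of all genes). In shARF against Ctrl 10 were higher and 20 lower (21.0% and 20.4% of all genes), and in Both against MLN 3 and 15 (11.8% and 20.6%). The interaction was positive for 11 and negative for 11 (11.2% and 17.1%). The median log2 differences were small in MLN vs Ctrl (0.19), shARF vs Ctrl (−0.087), Both vs shARF (−0.071) and Both vs MLN (−0.14), beside 0.052, 0, −0.038 and −0.080 over all genes. The canonical IKK genes were called in the same direction in both lines with MLN4924. IKBKG, the regulatory subunit NEMO, rose by 1.21 in PC3 and 1.04 in PC3-shp14ARF cells and CHUK, the kinase IKKα, by 0.60 and 0.65, whereas IKBKB, the kinase IKKβ, differed by −0.66 and −0.80 on the log2 scale (adjusted p at most 0.000801 for these 6 values). Their interactions were −0.17 for IKBKG, 0.047 for CHUK and −0.14 for IKBKB, none of them called (adjusted p = 0.329, 0.764 and 0.482). TBK1 rose by 0.46 (adjusted p = 0.00598) and 0.37 (adjusted p = 0.00652). MAP3K14, the kinase NIK of the non-canonical pathway, had 4.31 ± 0.333 TPM in Ctrl and 18.8 ± 2.88 in MLN, a log2 difference of 2.09 (adjusted p = 4.52e-05).

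Genes of SCF beta-TrCP, the ligase that marks IkB proteins for degradation, differed by no more than 0.68 on the log2 scale with MLN4924. In PC3 cells with MLN4924 CUL1 (−0.56), UBE2R2 (−0.68), FBXW11 (−0.45) and BTRC (−0.36) fell and RBX1 (0.48) and UBE2D3 (0.18) rose on the log2 scale, and SKP1 was not called (adjusted p = 0.431). Of all genes tested 29.4% were called lower and 32.2% higher there. In PC3-shp14ARF cells 3 of the 7 fell, CUL1 (−0.51), UBE2R2 (−0.57) and SKP1 (−0.34), and none was called higher by limma, also at an unadjusted p below 0.05. The shares of all genes called in this comparison were 32.8% lower and 28.3% higher, so 3 of 7 was near the general share. In Both against MLN limma called 0 of the 7, where 11.8% of all genes were called higher and 20.6% lower, and 0 were past an unadjusted p of 0.05.

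The genes named next are those of the list, other than the ones above, with the largest called differences among genes averaging 1 TPM or more. TNIP1, whose product binds A20, had 254 ± 26.0 TPM in Ctrl and 58.8 ± 8.82 in MLN, and 46.5 ± 1.82 in shARF and 30.7 ± 0.713 in Both. It was lower by log2 differences of −2.12 in MLN vs Ctrl, −2.45 in shARF vs Ctrl and −0.93 in Both vs MLN, and its interaction was 1.52 (adjusted p = 1.39e-05). ZC3H12A, the gene of the ribonuclease Regnase-1, had 197 ± 28.9 TPM in Ctrl and 39.7 ± 3.47 in MLN, and 4.74 ± 1.01 in shARF and 34.2 ± 1.29 in Both. Like NFKBIZ it fell in MLN vs Ctrl (−2.30) and shARF vs Ctrl (−5.36) and rose in Both vs shARF (2.85), and its interaction was 5.15 (SE 0.20, adjusted p = 1.26e-08). TNIP3, the gene of another A20-binding protein, rose with MLN4924 in both lines, by 2.99 in PC3 and 3.48 in PC3-shp14ARF cells, from 0.606 ± 0.0978 to 5.48 ± 0.372 TPM in PC3 cells. NKIRAS1, whose product binds the inhibitor IkBβ, rose by 1.36 and 1.45. NFKBID, the gene of the nuclear IkB protein IkBNS, rose by 1.72 in Both vs shARF, while CARD10, an adaptor, differed by −1.43 there and by −0.81 in Both vs MLN. BIRC3, the ubiquitin ligase cIAP2, was lower in shARF vs Ctrl (−2.16) and Both vs MLN (−1.85). PDLIM2, whose product promotes degradation of nuclear RELA, was lower in Both vs MLN (−1.43). MAP3K8, a kinase bound by p105, differed by −1.55 in shARF vs Ctrl and had an interaction of 1.00. TNIP3 in shARF vs Ctrl (−1.34) and Both vs MLN (−0.84), NFKBID (1.17) and CARD10 (−1.02) in the interaction complete the 5 largest called differences of each comparison at that level. TNIP3 has low levels in Ctrl and shARF, and with a pseudocount of 1 its difference was 1.76 in Both vs shARF and −0.44 in shARF vs Ctrl.

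**Figure D2:**
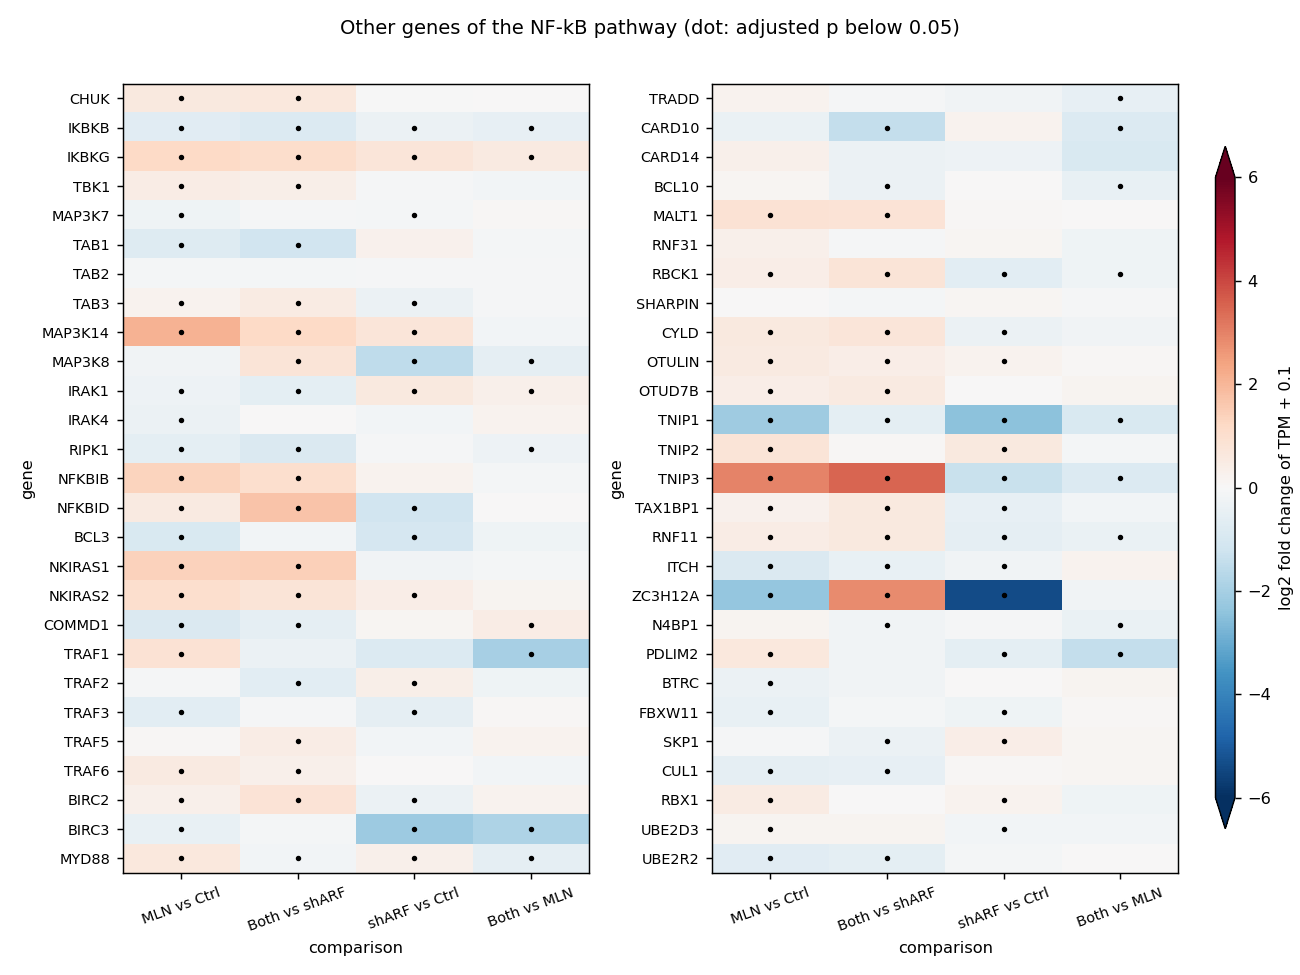
Log2 fold change of TPM + 0.1 of the 54 other pathway genes in the 4 comparisons, in color from −6 to 6, with a dot where the limma adjusted p is below 0.05. ZC3H12A is the deepest decrease in shARF vs Ctrl (−5.36) and TNIP3 the largest increase in both MLN4924 comparisons at this pseudocount (2.99 and 3.48), while at a pseudocount of 1 it is 1.76 in Both vs shARF, below the 2.63 of ZC3H12A.

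A second list held 31 genes generally known as NF-kB targets, of which 30 were tested, LTB being too low. Like the members and the pathway list, it was chosen with earlier results of these data known. With MLN4924 in PC3 cells 11 were higher and 13 lower (median −0.23), where 32.2% and 29.4% of all genes were called. In PC3-shp14ARF cells 22 were higher and 4 lower (median 0.92), where 28.3% and 32.8% of all genes were called. In shARF against Ctrl 2 were higher and 25 lower, with a median log2 difference of −3.50 (21.0% and 20.4% of all genes), and in Both against MLN 1 was higher and 18 lower (median −0.91; 11.8% and 20.6% of all genes). The interaction was positive for 24 and negative for 2 (11.2% and 17.1% of all genes), with a median of 1.93 beside −0.085 over all genes. Chemokine genes made up 4 of the 5 called interactions that were largest, the other being SAA1, which was at or near 0 in shARF and Both and for which no value is given. CXCL8, the gene of interleukin-8, had 998 ± 80.3 TPM in Ctrl and 31280.1 ± 5424 in MLN, and 16.6 ± 1.44 TPM in shARF and 37042 ± 948 in Both, with an interaction of 6.16 (SE 0.17, adjusted p = 6.13e-10). CXCL1 had 1266 ± 57.9 TPM in Ctrl and 758 ± 38.7 in MLN, and 7.68 ± 0.944 in shARF and 822 ± 68.1 in Both. It thus fell with MLN4924 in PC3 cells (log2 difference −0.74, adjusted p = 0.00029) and rose in PC3-shp14ARF cells (6.73, adjusted p = 8.14e-07), as NFKBIZ did, with an interaction of 7.47 (SE 0.13). CXCL3 had 133 ± 17.3 TPM in Ctrl and 451 ± 41.2 in MLN, and 0.945 ± 0.326 in shARF and 458 ± 18.3 in Both, an interaction of 7.06. CXCL2 rose by 5.71 and IL1A by 4.97 in Both vs shARF, and CXCL2 had an interaction of 5.91. In MLN vs Ctrl the 5 largest were SAA1 (−6.76, or −5.54 with a pseudocount of 1), LCN2 (−5.14), CXCL8 (4.96), C3 (−4.14) and IL1B (−3.25). In shARF vs Ctrl they were C3 (−8.93, or −7.52 with a pseudocount of 1), LCN2 (−8.63), CXCL1 (−7.35), SAA1 and CSF2. No fold is given for SAA1 and CSF2, since SAA1 was listed at 0 in every shARF library and CSF2 reached at most 0.400 TPM there, with at least 1 library at 0. In Both vs MLN they were IL1B (−5.60), C3 (−5.05), TNF (−4.08), LCN2 (−3.82) and CSF2 (−2.98). C3 and TNF were low in Both (0.365 and 0.507 TPM). With a pseudocount of 1 they differed by −3.56 and −2.83 and LCN2 by −3.62, so this order depends on the pseudocount.

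**Figure D3:**
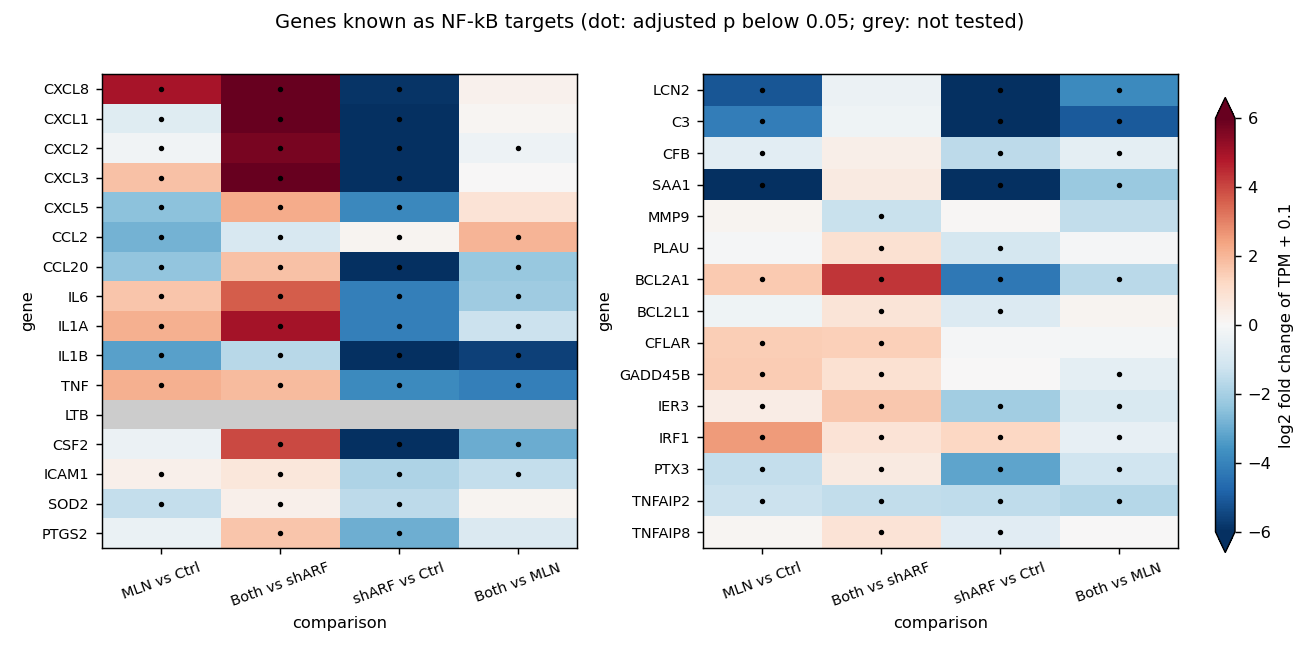
Log2 fold change of TPM + 0.1 of the 31 listed NF-kB target genes in the 4 comparisons, in color from −6 to 6 (values beyond are drawn in the end color), with a dot where the limma adjusted p is below 0.05 and grey for LTB. In shARF vs Ctrl 25 genes are called lower (20.4% of all genes tested), and in Both vs shARF 22 are called higher (28.3%).

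Across the 12 libraries the members fell into patterns, given here as descriptions, since the libraries share 4 conditions and the values follow the condition means. RELB and REL were most alike (Pearson r 0.974 of log2 values), followed by RELB and NFKB2 (0.959), REL and NFKB2 (0.913), NFKBIA and IKBKE (0.905), RELA and NFKB2 (0.891), and NFKB1 and NFKBIA (0.868). The lowest value was that of RELA and NFKB1 (−0.758), and NFKB1 and NFKB2 had −0.603. Outside the members, the genes with the most similar pattern were CKAP4 for NFKB1 (0.9963), GM2A for IKBKE (0.9959), ICAM1 for TNFAIP3 (0.9958), DNASE2 for NFKB2 (0.9945), TMEM92 for RELB (0.9942), FJX1 for NFKBIA (0.9941), SERPINB8 for NFKBIZ (0.9896), NNMT for REL (0.9887), RAB11FIP5 for RELA (0.9861) and RNASEH2C for NFKBIE (0.9684), among 14653 genes that averaged 1 TPM or more. ICAM1, which encodes an adhesion molecule and is in the target list, was the closest to TNFAIP3, with 369 ± 30.8 TPM in Ctrl and 452 ± 40.7 in MLN, and 102 ± 2.25 in shARF and 165 ± 3.94 in Both.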

How the data were processed

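The RNA was sequenced by a service provider, and the authors mapped reads to hg38 and quantified genes in CLC Genomics Workbench with an Ensembl annotation. The authors deposited TPM, which sum to 1000000 in each of the 12 libraries, so no count model was used and the depth is not known. The labels give 1 sample for each of the 4 conditions, and columns were assigned to conditions by name, with the column numbers as library names. The series' design text speaks of a knockout and of another unit for the dose, and the labels and the methods of an shRNA and 1 µM, which are used here.

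Values were analysed as log2(TPM + 0.1), which understates the change of low genes, after a filter that kept the 19932 genes averaging 0.1 TPM or more. Linear models were fitted in R 4.3.3 using limma 3.58.1 (lmFit, then eBayes with a trend), and p-values were adjusted by the Benjamini-Hochberg method over every gene tested. Pairwise comparisons used the 6 libraries of their 2 conditions and the interaction all 12. An adjusted p below 0.05 made a call. The fits were tested on simulated data. Kappa-B matches were searched in RefSeq promoter windows, and gene coordinates are from GENCODE 44 (GRCh38), another release than the authors'.

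The members and lists were chosen with earlier results of these data known. The genes named are CDKN2A, the members, in each comparison up to 5 called genes of each list with the largest change, whose libraries did not overlap (interaction aside) and whose mean was 1 TPM or higher, the SCF beta-TrCP genes and the kinases, and for each member the first of the 3 genes with the highest correlation. NFKBIB in the ratios was added after its values were seen. Alternatives were other pseudocounts (1 and 0.01), filtering at 1 TPM or not at all, scaling by median of ratios, a joint fit of the 12 libraries, eBayes with no trend, blocking on the column number, and omission of each library.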

Additional observations from a re-analysis of the deposited data

Results flagged for a closer look

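In 7 members the response to MLN4924 differed between PC3-shp14ARF and PC3 cells by the test of the difference itself (limma interaction, adjusted over 19932 genes). Of these, 6 were positive and 1 negative, where 11.2% and 17.1% of all genes were called. The difference, as the log2 response in PC3-shp14ARF minus that in PC3 cells, was 4.39 for NFKBIZ, 1.95 for NFKBIA, 1.13 for REL, 0.98 for NFKB1, 0.88 for TNFAIP3, 0.80 for RELB and −0.93 for NFKBIE. NFKBIZ was the member whose response was called in opposite directions, lower in 3 of 3 MLN libraries than in every Ctrl library and higher in 3 of 3 Both libraries than in every shARF library. CDKN2A was itself lower in MLN than in Ctrl (118 ± 16.4 against 183 ± 6.49 TPM) and stood at 47.5 ± 6.40 TPM in Both against 59.3 ± 1.47 TPM in shARF (adjusted p = 0.0296, range 0.00621 to 0.128 over the alternatives, lost with no filter, median-of-ratios scaling or eBayes without trend, and without any 1 of the shARF libraries or Both replicate 2), and the part of that in these differences was not tested. CDKN2A RNA includes p16INK4a and does not measure p14ARF protein, which the paper reports to rise with MLN4924 in PC3 cells. The groups of 3 libraries were too small to be searched for outlying libraries.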

How the results depend on the processing

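Of 730 recomputed values of the members, 693 kept their direction and their side of the threshold, and of the 42 called results 24 did so in every alternative. The labels do not say whether equal column numbers pair the libraries. Over 10 same-numbered pairs the correlation of deviations from the condition means was −0.147 to 0.063, and over 44 differently numbered pairs −0.113 to 0.126. With 3 libraries in each condition, these values cannot decide whether equal numbers mark a shared culture or batch. With a replicate block the members called in MLN vs Ctrl went from 9 to 4, with the 4 falls still called and 0 of the 5 rises (adjusted p = 0.0767 to 0.184), and the pathway list from 42 to 14. The blocked fit of MLN vs Ctrl had 1 residual degree of freedom, and all 10 members kept their direction. In shARF vs Ctrl the block left 0 members of 9 (7 at an unadjusted p below 0.05), 0 of 30 pathway genes (29) and 0 of 27 target genes (26), with 1 residual degree of freedom and all 10 members in the same direction. The lowest adjusted p of a member was then 0.0607. The block also ended the interaction calls of REL (adjusted p = 0.0616) and CARD10 (adjusted p = 0.0563). Both vs shARF and Both vs MLN share fewer than 2 numbers, so no block was fitted there. Directions turned only in values that were not called. Leaving out 1 library gave RELA in shARF vs Ctrl between −0.107 and 0.027 (positive without Ctrl replicate 1), REL in Both vs MLN between −0.051 and 0.018 (positive without Both replicate 4) and RBX1 in Both vs shARF between −0.057 and 0.13 on the log2 scale. REL in Both vs MLN was 0.076 with median-of-ratios scaling, and SKP1 in MLN vs Ctrl was 0.020 with the block. The read depth is unknown, so what it limits was not assessed.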
